A study of Mus musculus with 4 samples.

Results

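The TGF-beta pathway was followed in the ovary through 10 genes taken by name: the ligands Tgfb1, Tgfb2 and Tgfb3, the receptors Tgfbr1 and Tgfbr2, the latent TGF-beta binding proteins Ltbp1, Ltbp2 and Ltbp4, and the SMAD proteins Smad3 and Smad7. They are 10 of the 32285 genes counted, chosen by their place in the pathway and not by a threshold on a measured value. All 10 had UMIs (unique molecular identifiers, the tags that count RNA molecules) in all 4 libraries, from 470 UMIs for Ltbp2 in the Fosl2F/F replicate 1 library to 61991 UMIs for Ltbp1 in the Fosl2F/F replicate 2 library.

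TGF-beta is secreted in a latent form. Its propeptide holds the ligand inactive, and latent TGF-beta binding proteins tether the complex to fibers of the extracellular matrix, from which integrins and proteases release it. Free ligand binds the type II receptor, which activates the type I receptor, and the latter phosphorylates SMAD2 and SMAD3. SMAD7 is an inhibitory SMAD that blocks the type I receptor and is itself induced by the signal. In the ovary the pathway is known for its part in granulosa cell (GC) growth and differentiation, in theca and stroma, and in the turnover of the corpus luteum.

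Single-cell RNA sequencing covered ovaries of 8-week-old female mice of the same litter, all homozygous for a floxed Fosl2 allele. Fosl2F/F mice are listed without Cre, and Fosl2cKO mice (Cyp19a1-Cre; Fosl2flox/flox) carried Cre under the promoter of the aromatase gene, which acts in GCs. Each group has 2 libraries, made with the 3′ kit of 10x Genomics. The group size that the study states equals the number of libraries, but neither it nor the labels say whether a library is a single animal or a pool, so p-values measure the spread between libraries, which may be technical. The comparison asks what the loss of Fosl2 in GCs changes in ovarian cells.

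The 4 libraries held 8654 to 28155 barcodes and 120327227 to 148836173 UMIs, and 6760 to 19575 cells were kept per library. The Fosl2F/F replicate 2 library stood apart, with a median of 3646 UMIs per cell against 11191 to 12465 in the others. Between 12 and 49 barcodes were shared by any pair of libraries. Cells were clustered without the pathway genes and named from markers with the suffix "-like". There were 11 named classes with at least 20 cells in every library, and GC-like cells held 5 named subclasses. Levels are given as CPM, the UMIs of a gene scaled to the total UMIs of the class in a library. They compare classes for the same gene and not genes with each other, since a 3′ count is not per length. A class's share of a gene's UMIs also depends on the size of the class. With Fosl2F/F, GC-like cells held 71411053 of 108103260 and 38391339 of 104019199 kept UMIs. With the Fosl2cKO label they held 50022048 of 111376215 and 48360963 of 105295858. The floxed gene was counted first. In GC-like cells, Fosl2 stood at 160 and 167 CPM (Fosl2F/F) and at 167 and 114 CPM (Fosl2cKO), which overlap (log2 fold change -0.25, adjusted p = 0.999). This p and all others on levels come from quasi-likelihood fits in edgeR, adjusted after Benjamini and Hochberg over all genes tested. In luteal-like cells Fosl2 was higher without overlap under the Fosl2cKO label, against its direction (29.5% of all genes were higher without overlap there). It stood at 163 and 191 CPM in Fosl2F/F and 200.3 and 304 CPM in the others (a log2 fold change of 0.38, adjusted p = 0.671). Fosl2 did not pass in any class. The study reports by immunoblot that Fosl2 protein was depleted in GCs of Fosl2cKO mice. The counts here are of RNA from a 3′ kit, and whether they reflect the floxed exons was not tested. Because Fosl2 RNA was not clearly lower in these counts, directions are given by label, as libraries labelled Fosl2cKO.

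Each class was compared with the mean of the other 10 named classes, with a limit of 0.05 on the adjusted p and of 1 on the size of the log2 difference. Of 110 member and class pairs, 34 were higher and 32 lower. Among all 14673 genes tested, 7.48% (B lymphocyte-like) to 18.3% (epithelial-like) passed as higher in a class and 4.91% (stromal-like) to 13% (B lymphocyte-like) as lower. Lymphatic endothelial-like cells had the most members passing, with 6 of 10 higher and 3 lower, against 13.1% and 6.73% of all genes. Pericyte or smooth muscle-like and stromal-like cells had 5 of 10 higher each and 0 lower (15.5% and 17.8% of all genes were higher there, and 5.25% and 4.91% lower). Theca-like cells had 0 higher and 6 lower, where 14.9% and 7.92% of all genes passed. Of the 6, Ltbp2 turned from -1.26 to 0.0212 on the log2 scale without Fosl2cKO replicate 1. That library held the only Ltbp2 UMI of B lymphocyte-like cells, so this class, part of the mean compared with, then had 0 UMIs of it. With all 4 libraries but without the B lymphocyte-like class, Ltbp2 in theca-like cells was at -1.25 and passed (adjusted p = 0.0071 in edgeR). GC-like cells had 1 higher and 4 lower, against 17.7% and 9.47%, and luteal-like cells 2 higher and 4 lower, against 14.7% and 9.51%. NK or T-like cells had 4 of 10 higher and 4 lower (13.5% and 11.1% of all genes), epithelial-like cells 4 and 3 (18.3% and 7.39%), endothelial-like cells 3 and 2 (15.8% and 6.6%), macrophage-like cells 2 and 3 (17.5% and 10.3%) and B lymphocyte-like cells 2 and 3 (7.48% and 13%). The 3 lower in B lymphocyte-like cells were Tgfb2, at 0 UMIs, Tgfbr1, at 3 to 5 UMIs per library, and Ltbp1, at 1 to 3. These calls rest on very few counts. For Tgfb2 no standard error could be had in 3 of the 110 pairs (GC-like, luteal-like and macrophage-like cells), since B lymphocyte-like cells had 0 UMIs of it. Without that class, 31 of 100 pairs were higher and 32 lower, with 5 lower in each of GC-like, luteal-like and NK or T-like cells, 4 lower in macrophage-like, 4 higher in each of stromal-like and endothelial-like, and 3 higher and 2 lower in epithelial-like cells. Classes next to each other in the order of a gene's mean levels were also compared, by the same limits (30.9% of all genes passed over all pairs of classes). The classes share the same 4 libraries and are not independent of each other.

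**Figure D1:**
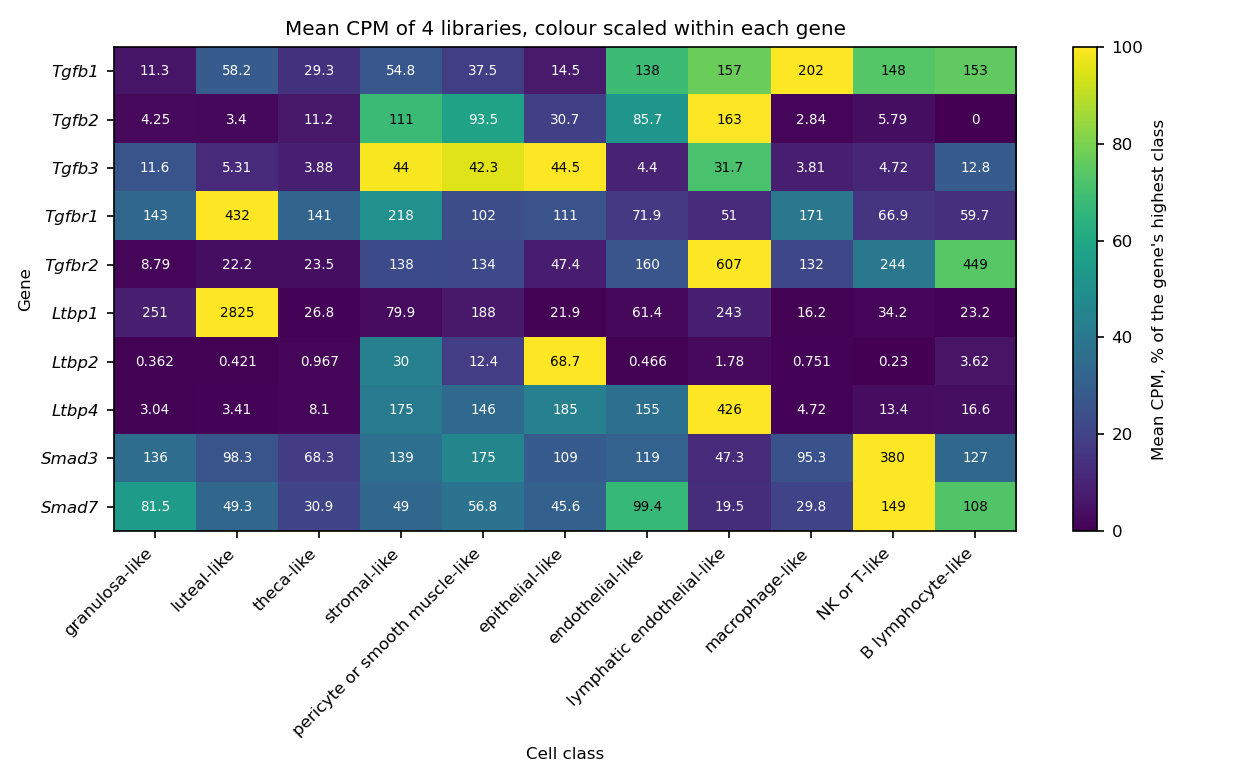
Mean level of each of the 10 genes (rows) in the 11 named cell classes (columns), printed in each cell as CPM averaged over 4 libraries. Colour gives the mean as a percentage of the gene's highest class, so colours compare classes within a row only, and Ltbp1 reached 2825 CPM in luteal-like cells against 250.8 CPM in GC-like cells.

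Among the 11 named classes tested, the 3 ligands were highest in different ones. Oocyte-like cells, too few for a test, are not among the 11, and their Tgfb2 level is given below. Tgfb1, the isoform made by most leukocytes, was highest in macrophage-like cells, Tgfb2 in lymphatic endothelial-like and stromal-like cells, and Tgfb3 in epithelial-like, stromal-like and pericyte or smooth muscle-like cells. Among the 11 classes, GC-like cells ranked 11 for Tgfb1, 8 for Tgfb2 and 6 for Tgfb3.

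Tgfb1 (chromosome 7, 25687002 to 25705077, plus strand of GRCm38, the build of all gene positions here) stood at 157 and 213 CPM in macrophage-like cells with Fosl2F/F and at 237 and 199 CPM with the Fosl2cKO label, a mean of 202 ± 33.8 CPM (SD, n = 4 libraries, as for every ± after a CPM value). Its mean level followed at 157 CPM in lymphatic endothelial-like, 153 ± 90.4 CPM in B lymphocyte-like (from 3 to 33 UMIs per library), 148 CPM in NK or T-like and 138 CPM in endothelial-like cells. None of these 4 steps between neighbours passed the test, whereas the step from endothelial-like to luteal-like cells (58.2 CPM) did (log2 difference 1.11 ± 0.29 SE, adjusted p = 0.00148). GC-like cells had the lowest mean of Tgfb1 among the 11 classes, not separated from epithelial-like cells (14.5 CPM; log2 difference 0.42, adjusted p = 0.305), with 9.21 and 11.7 CPM with Fosl2F/F and 15.5 and 8.66 CPM with the Fosl2cKO label. They lay 2.76 log2 units under the mean of the other classes (log2 difference -2.76, SE 0.26, adjusted p = 1.23e-11). GC-like cells, the largest class, held 12.45% to 30.85% of a library's Tgfb1 UMIs, beside 12.53% to 20.53% in macrophage-like cells.

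Tgfb2 (chromosome 1, 186622792 to 186705989, minus strand) was, among the 11 classes, highest in the endothelial, stromal and perivascular ones. It stood at 104 and 110 CPM in stromal-like cells with Fosl2F/F and at 132 and 96.8 CPM with the Fosl2cKO label. The mean in lymphatic endothelial-like cells was 163 ± 89.3 CPM, with libraries from 59.8 to 278 CPM, and it did not pass as different from the stromal-like mean of 111 CPM (log2 difference 0.50, adjusted p = 0.185). Pericyte or smooth muscle-like cells had 93.5 CPM and endothelial-like cells 85.7 CPM, each again without a difference from its neighbour that passed. A fall to 30.7 CPM in epithelial-like cells (log2 difference 1.38, adjusted p = 1.94e-04) and to 11.2 CPM in theca-like cells (1.49, adjusted p = 9.11e-05) did pass. GC-like cells had 4.25 ± 0.877 CPM of Tgfb2, luteal-like cells 3.40 CPM and macrophage-like cells 2.84 CPM. B lymphocyte-like cells had 0 of 335102 UMIs, which allows a level of up to 8.95 CPM, and differences of Tgfb2 from the mean of the other classes were therefore also fitted without that class. They were then 3.23 on the log2 scale in lymphatic endothelial-like cells (adjusted p = 3.48e-14) and -2.54 in GC-like cells (adjusted p = 1.80e-10), while the call in epithelial-like cells was lost (0.64 in place of 1.72). The 124 oocyte-like cells, too few for a test, had 7 to 104 Tgfb2 UMIs per library, and their level of 160 to 353 CPM lay within or above the range of lymphatic endothelial-like cells.

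Tgfb3 (chromosome 12, 86056745 to 86079041, minus strand) had close levels in the classes that cover or support the organ. Its means were 44.5 ± 2.57 CPM in epithelial-like, 44.0 ± 5.66 CPM in stromal-like and 42.3 ± 17.9 CPM in pericyte or smooth muscle-like cells. The log2 differences between these neighbours were 0.07 (SE 0.25) and 0.08 (SE 0.25). Lymphatic endothelial-like cells followed at 31.7 CPM, whereas blood endothelial-like cells had only 4.401 CPM (3.34 to 5.44 over the libraries). An unnamed cluster of 1012 cells led by Cnn1 and Actg2 had 51.6 to 109 CPM of Tgfb3, in each library above the highest mean of a named class. Its leading genes include Myh11 and Acta2, markers of the pericyte or smooth muscle list, so the named class does not hold all such cells. The step from GC-like (11.6 ± 1.90 CPM) to luteal-like cells (5.31 CPM) passed for Tgfb3 (log2 difference 1.17 ± 0.27 SE, adjusted p = 4.24e-04).

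The receptors differed in profile. Tgfbr1, the type I receptor kinase, had its highest mean in luteal-like cells, although not in every library, and had UMIs in every class (3 to 5 per library in B lymphocyte-like cells, from which no expression is read), while Tgfbr2, the ligand-binding type II receptor, was highest in lymphatic endothelial-like cells and lymphocytes and lowest in GC-like cells. Across the 11 classes the mean log2 levels of the 2 receptors had a Pearson correlation of -0.703, a description over classes that share the 4 libraries.

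Tgfbr1 (chromosome 4, 47353222 to 47414931, plus strand) had 112 and 303 CPM in luteal-like cells with Fosl2F/F and 622 and 690 CPM with the Fosl2cKO label. In the Fosl2F/F replicate 1 library, luteal-like cells lay below stromal-like cells (145 CPM) and GC-like cells (134 CPM). The spread within the class was wide (432 ± 272 CPM), and the step to stromal-like cells (218 CPM) did not pass the size limit (log2 difference 0.91 ± 0.22 SE, adjusted p = 6.32e-04). Against the mean of the other classes, luteal-like cells passed (log2 difference 2.01, SE 0.15). Macrophage-like (171 CPM), GC-like (143 ± 16.5 CPM) and theca-like cells (141 CPM) came next, and lymphatic endothelial-like cells were lowest at 51.0 CPM. From stromal-like to lymphatic endothelial-like cells, no step of Tgfbr1 between neighbours passed.

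Tgfbr2 (chromosome 9, 116084293 to 116175360, minus strand) stood at 572 and 550 CPM in lymphatic endothelial-like cells with Fosl2F/F and at 560 and 748 CPM with the Fosl2cKO label. B lymphocyte-like cells had 448 ± 88.0 CPM, NK or T-like cells 244 ± 35.2 CPM and blood endothelial-like cells 160 ± 28.3 CPM, a falling order in which no single step passed both limits. In GC-like cells the level was 7.02 and 12.2 CPM with Fosl2F/F and 9.32 and 6.60 CPM with the Fosl2cKO label. GC-like cells lay 3.79 log2 units under the mean of the other classes (log2 difference -3.79, SE 0.22, adjusted p = 1.33e-17), and luteal-like cells, at 22.2 CPM, still passed as higher than GC-like cells (log2 difference 1.39 ± 0.23 SE, adjusted p = 4.20e-06). Theca-like cells had 23.5 ± 4.03 CPM. The 3 steroidogenic classes were thus the lowest in Tgfbr2 among the 11 named classes by mean, while each had a mean of Tgfbr1 over 140 CPM (single libraries from 94.8 CPM in theca-like cells). Unnamed clusters with the theca marker Enpep among their leading genes are not in the theca-like class. That of 4248 cells led by Hhip and Tmem100 had 129.5 to 163.1 CPM of Tgfbr2 and held 17.98% to 27.02% of a library's UMIs of it. The cluster led by Enpep and Mxd3 had 107.2 to 169.1 CPM, so the low level holds for the named theca-like class only.

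**Figure D2:**
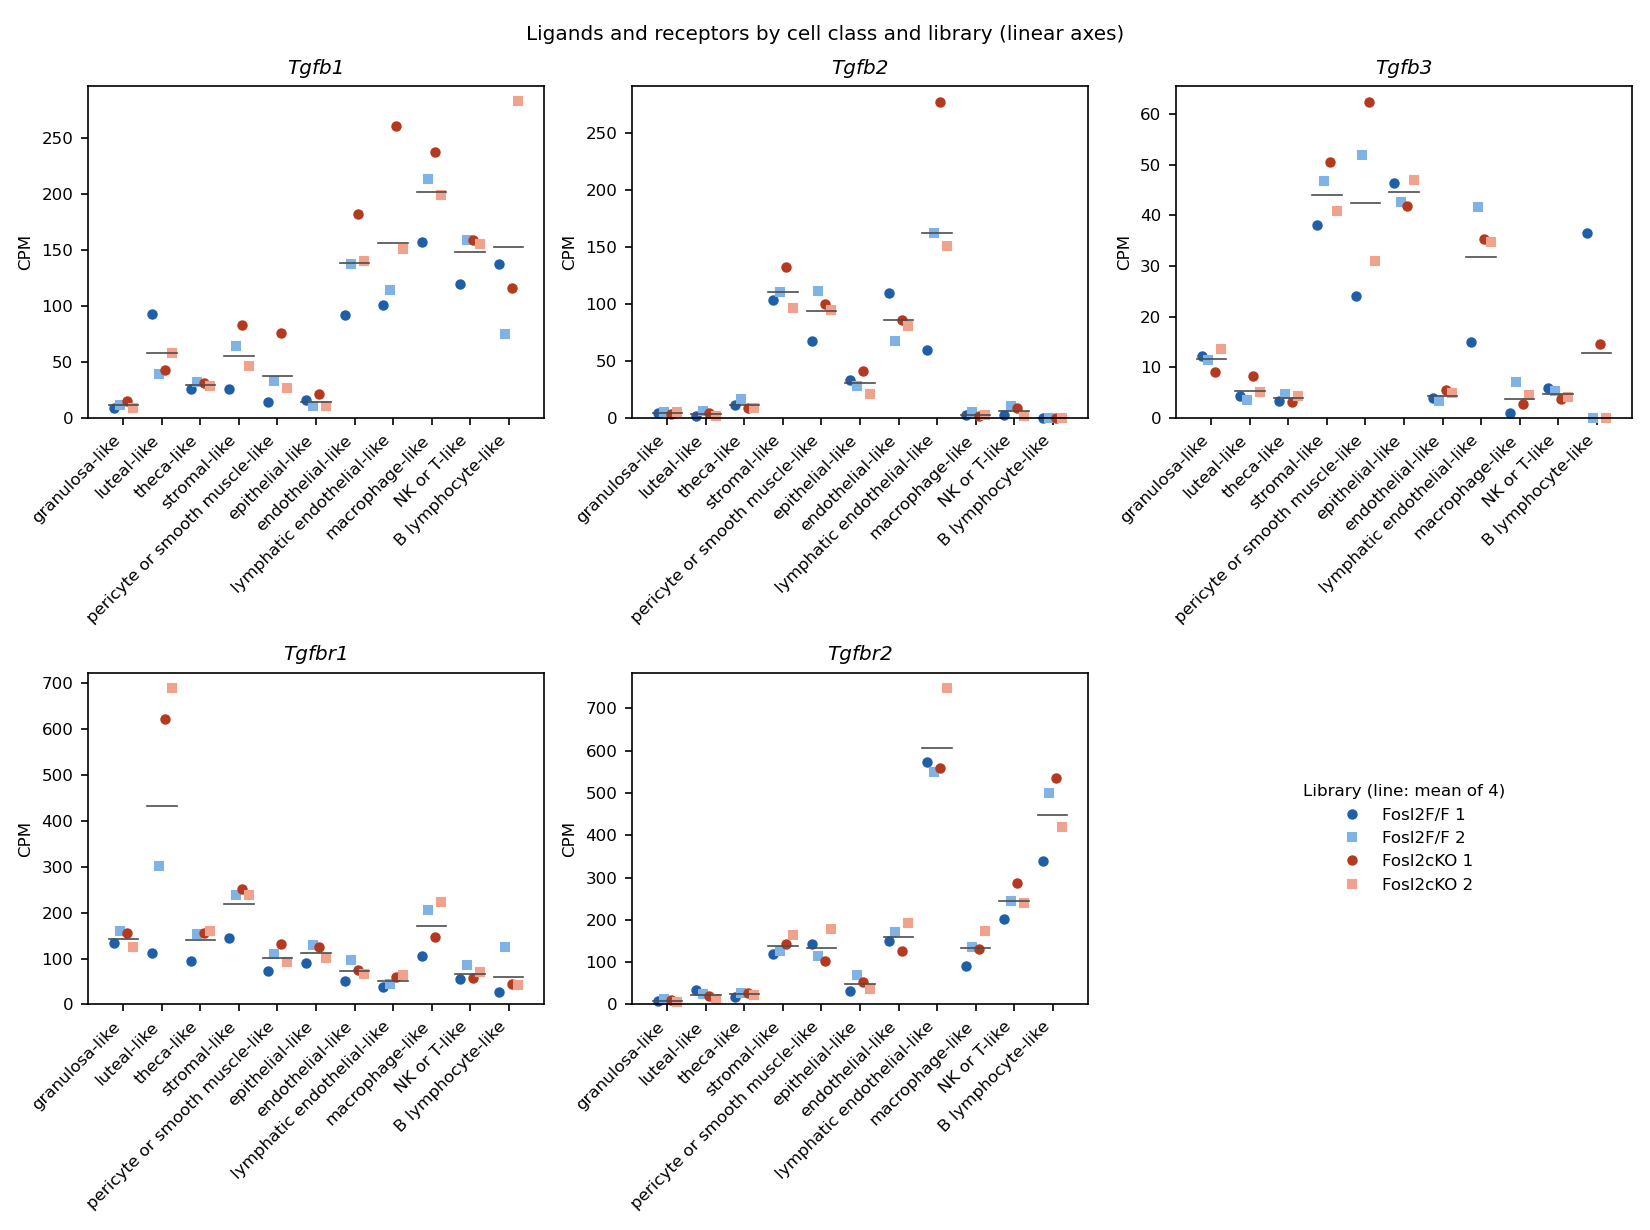
Level of the ligands Tgfb1, Tgfb2 and Tgfb3 and the receptors Tgfbr1 and Tgfbr2 in CPM (vertical axes, linear) in each of the 11 named classes (horizontal axes). Points are libraries and lines are means of 4; the 4 libraries of Tgfbr2 in lymphatic endothelial-like cells lie between 550 and 748 CPM, and those of GC-like cells between 6.60 and 12.2 CPM.

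Each binding protein had its own set of classes. Ltbp1 was, among the named classes, highest in luteal-like cells and, at a lower level, GC-like cells, and an unnamed shallow cluster of 291 cells led by Spef2 had 322 to 667 CPM of Ltbp1. Ltbp2 was, among the named classes, highest in epithelial-like, stromal-like and pericyte or smooth muscle-like cells, and Ltbp4 was high in endothelium, epithelium and stroma and very low in GC-like and luteal-like cells.

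Ltbp1 (chromosome 17, 75005568 to 75392512, plus strand), which covalently binds the latent complex, stood at 1760 and 1834 CPM in luteal-like cells with Fosl2F/F and at 2165 and 5539 CPM with the Fosl2cKO label. All 4 libraries lay above every library of every other named class, the highest of which was 388 CPM in lymphatic endothelial-like cells. The step from luteal-like to GC-like cells (250.8 ± 27.8 CPM) was 3.45 ± 0.39 SE on the log2 scale (adjusted p = 1.52e-09). GC-like cells did not differ beyond the spread from the next class, lymphatic endothelial-like cells (243 CPM), nor these from pericyte or smooth muscle-like cells (188 CPM), and theca-like cells had 26.8 ± 6.86 CPM. Together, luteal-like and GC-like cells held most Ltbp1 UMIs of each library, with 22.9% to 72.8% in luteal-like and 21.5% to 71.2% in GC-like cells.

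Luteal-like cells came from 2 clusters whose shares differed between libraries. The cluster led by Ces2a and Bhmt held 60 and 842 cells with Fosl2F/F and 289 and 233 cells with the Fosl2cKO label. The cluster led by Onecut2 and Akr1c18 held 125, 386, 39 and 59 cells in the same order. In UMIs the former held 167614, 12789400, 6336043 and 5508540, and the latter 3313836, 3119970, 414370 and 749628. The luteal-like values of Fosl2F/F replicate 1 thus came mostly from the cluster led by Onecut2, and those of the other libraries from that led by Ces2a. Ltbp1 stood at 525, 1932, 2096 and 5551 CPM in the cluster led by Ces2a. In that led by Onecut2 it stood at 1822, 1432, 3231 and 5453 CPM. Both clusters therefore had Ltbp1 UMIs in every library. The lowest value rests on 88 UMIs from 60 cells, in a library with 253 CPM of Ltbp1 over all barcodes.

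Around the start of Ltbp1, a motif search found the letters of a CRE-type site, to which ATF and CREB factors and some Fos and Jun dimers bind. The site is shown because Ltbp1 was the only one of 8 genes with a promoter window to hold it. The sequence is from RefSeq (GRCm38.p6, chr17:75005445-75005474, plus strand), the capitals mark the motif TGACGTCA, and its first base lies 73 bases before the start that RefSeq gives and 112 bases before the GENCODE start printed for the gene (relative positions -73 and -112).
Ltbp1: gatttgctgccTGACGTCAcgtctgctgca

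The windows reach from 250 bases before to 50 bases after each start, and 12 windows of the 8 genes were matched by symbol (Tgfb3 and Smad7 had none). The letters TGACGTCA, searched on both strands, occur in 1.79% of all 32851 windows. The AP-1 motif TGANTCA, the element of Fosl2 and its partners, was in 0 of the 12 windows and in 7.81% of all. The SMAD-binding letters CAGACA were in windows of Ltbp1, Tgfb2 and Tgfbr1 and in 21.0% of all, and the palindrome GTCTAGAC in 0 windows and 0.213% of all. A match describes letters in these windows and does not show binding.

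Ltbp2 (chromosome 12, 84783212 to 84876532, minus strand), a matrix protein of the same family that does not bind latent TGF-beta, had 69.2 and 66.4 CPM in epithelial-like cells with Fosl2F/F and 68.6 and 70.5 CPM with the Fosl2cKO label. The groups overlap, and the SD over the 4 libraries was 1.72 CPM. Stromal-like cells had 30.03 ± 7.49 CPM, lower by a log2 difference that passed (1.26, adjusted p = 4.62e-05), and pericyte or smooth muscle-like cells had 12.4 ± 3.03 CPM (a further 1.35, adjusted p = 4.43e-04). Every other named class tested had a mean under 4 CPM of Ltbp2. Among the unnamed clusters, that of 4248 cells led by Hhip and Tmem100 had 9.72 to 23.4 CPM of Ltbp2 and held 14.68% to 23.6% of a library's UMIs of it. The unnamed clusters led by Cnn1 and by Enpep and Mxd3 had 15.2 and 14.7 CPM. GC-like cells had 0.362 CPM from 14 to 24 UMIs per library.

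Ltbp4 (chromosome 7, 27305136 to 27337692, minus strand), which binds latent complexes and also helps assemble elastic fibers, stood at 423 and 386 CPM in lymphatic endothelial-like cells with Fosl2F/F and at 542 and 354 CPM with the Fosl2cKO label. It passed as higher there than in epithelial-like cells (185 ± 31.1 CPM, log2 difference 1.09 ± 0.28 SE, adjusted p = 0.00158). Epithelial-like, stromal-like (175 CPM), endothelial-like (155 CPM) and pericyte or smooth muscle-like cells (146 CPM) formed a group in which no neighbours differed beyond the spread. GC-like cells had 3.04 CPM of Ltbp4 and luteal-like cells 3.41 CPM, with log2 differences from the mean of the other classes of -3.68 (SE 0.37) and -3.31 (SE 0.37). A small stromal-like cluster of 207 cells led by Clec3b and Dpt reached 514 to 1103 CPM, against 109 to 214 CPM in the large stromal-like cluster. The unnamed cluster led by Hhip and Tmem100 had 106.6 to 156.2 CPM of Ltbp4 and held 22.15% to 28.08% of a library's UMIs of it. That led by Enpep and Mxd3 had 104.7 to 148.7 CPM.

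**Figure D3:**
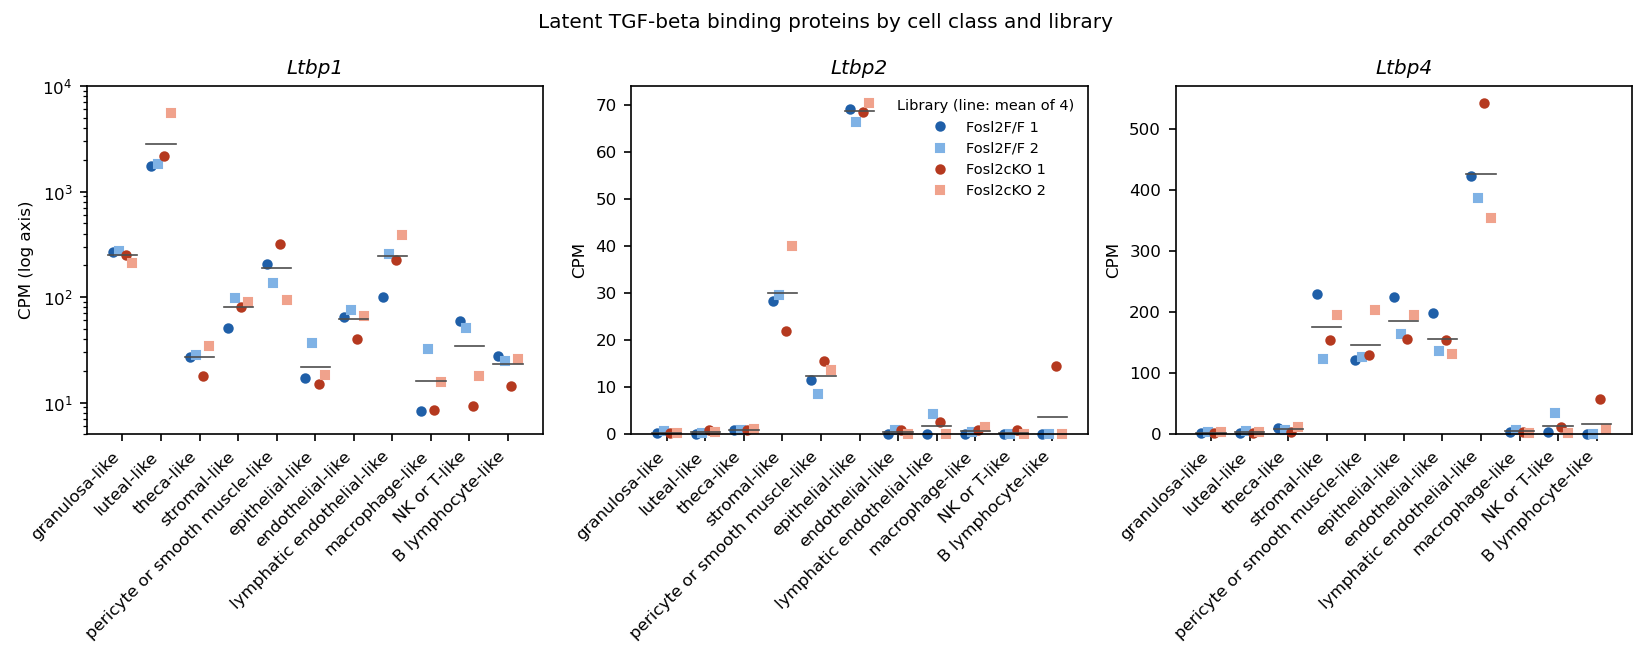
Level of Ltbp1 (log axis), Ltbp2 and Ltbp4 (linear axes) in CPM in the 11 named classes, with libraries as points and means of 4 as lines. Ltbp1 lies between 1760 and 5539 CPM in luteal-like cells, Ltbp2 between 66.4 and 70.5 CPM in epithelial-like cells and Ltbp4 between 354 and 542 CPM in lymphatic endothelial-like cells.

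Both SMAD genes had UMIs in all 11 classes. Their highest means were in NK or T-like cells, although Smad7 was not highest there in every library. Smad3 (chromosome 9, 63646767 to 63757994, minus strand), the receptor-activated SMAD, stood at 284 and 379 CPM in NK or T-like cells with Fosl2F/F and at 428 and 431 CPM with the Fosl2cKO label. It was higher there than in pericyte or smooth muscle-like cells (175 ± 66.7 CPM, log2 difference 1.25 ± 0.20 SE, adjusted p = 2.45e-06). The other 9 classes lay between 47.35 CPM in lymphatic endothelial-like and 139 CPM in stromal-like cells, and no step between neighbours among them passed both limits. GC-like cells had 136 ± 40.3 CPM, and they held 44.4% to 68.3% of a library's Smad3 UMIs, a share near that of the class in all kept UMIs.

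Smad7, the inhibitory SMAD, had mean levels from 19.5 CPM in lymphatic endothelial-like to 149 CPM in NK or T-like cells, with 99.4 CPM in endothelial-like and 81.5 CPM in GC-like cells. No step between neighbours passed, and the spread over libraries was wide (81.5 ± 40.4 CPM in GC-like cells). NK or T-like cells passed as higher than the mean of the other classes (log2 difference 1.45, SE 0.19), with both conditions together. In Fosl2F/F replicate 1 they lay, at 52.3 CPM, below endothelial-like (53.2 CPM) and B lymphocyte-like cells (54.9 CPM, from 6 UMIs). In Fosl2cKO replicate 1 they lay, at 154 CPM, below B lymphocyte-like cells (174 CPM, from 12 UMIs). Lymphatic endothelial-like cells passed as lower (-1.44, SE 0.31), from 2 to 37 UMIs per library. Between 46.95% and 77.75% of a library's Smad7 UMIs came from GC-like cells.

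Among GC-like cells, the 5 named subclasses differed in 4 of the 10 genes, with unnamed clusters of 1712 and 476 cells left out. Each subclass was compared with the mean of the other 4, and 45 member and subclass pairs were tested, Ltbp2 being too low. There were 4 higher and 1 lower. Smad3 and Tgfbr2 were higher in cumulus-like cells (10.4% of all genes were higher there), Ltbp1 was higher in mural-like cells (3.35%), and in atretic-like cells Tgfb2 was higher (5.84%) and Ltbp1 lower (3.82%). None of the 9 genes tested was lower in cumulus-like or mural-like cells, where 8.96% and 4.8% of all genes were, or passed in mitotic-like (4.55% higher, 2% lower) and mitotic-antral-like cells (3.99% and 6.14%).

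Smad3 stood at 264 and 360 CPM in cumulus-like cells with Fosl2F/F and at 404 and 365 CPM with the Fosl2cKO label. All 4 values lay above every library of the other subclasses, whose means ran from 74.5 CPM in mitotic-antral-like to 105 CPM in mural-like cells. The log2 difference from mural-like cells was 1.68 ± 0.10 SE (adjusted p = 2.25e-10; 15.4% of all genes passed over all pairs of subclasses). Tgfbr2 had 17.9 ± 7.53 CPM in cumulus-like cells, a log2 difference of 1.33 (SE 0.17) from the mean of the others that fell short of the limit without Fosl2cKO replicate 1 (Tgfbr2 in cumulus-like cells, 0.978), and the step to atretic-like cells (12.6 CPM) did not pass (0.41, adjusted p = 0.139).

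Ltbp1 stood at 511 and 355 CPM in mural-like cells with Fosl2F/F and at 397 and 418 CPM with the Fosl2cKO label. Mitotic-antral-like (339 ± 66.2 CPM), mitotic-like (259 ± 24.2 CPM), cumulus-like (194 ± 63.9 CPM) and atretic-like cells (111 CPM) followed. No single step passed both limits, but both ends of the order passed against the mean of the others (1.03, SE 0.16 in mural-like and -1.39, SE 0.19 in atretic-like cells). The call of Ltbp1 in mural-like cells was near the limit of 1, and it was lost without Fosl2F/F replicate 1 (log2 difference 0.849) and with under 5% mitochondrial UMIs (0.996). Tgfb2 was at 11.3 ± 3.92 CPM in atretic-like cells, from 34 to 170 UMIs per library, against means of 1.85 to 2.85 CPM in the other subclasses (log2 difference from cumulus-like cells 2.15 ± 0.34 SE, adjusted p = 5.12e-05). The lowest atretic-like library, Fosl2cKO replicate 1 at 5.59 CPM, lay below the highest cumulus-like library at 5.65 CPM.

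**Figure D4:**
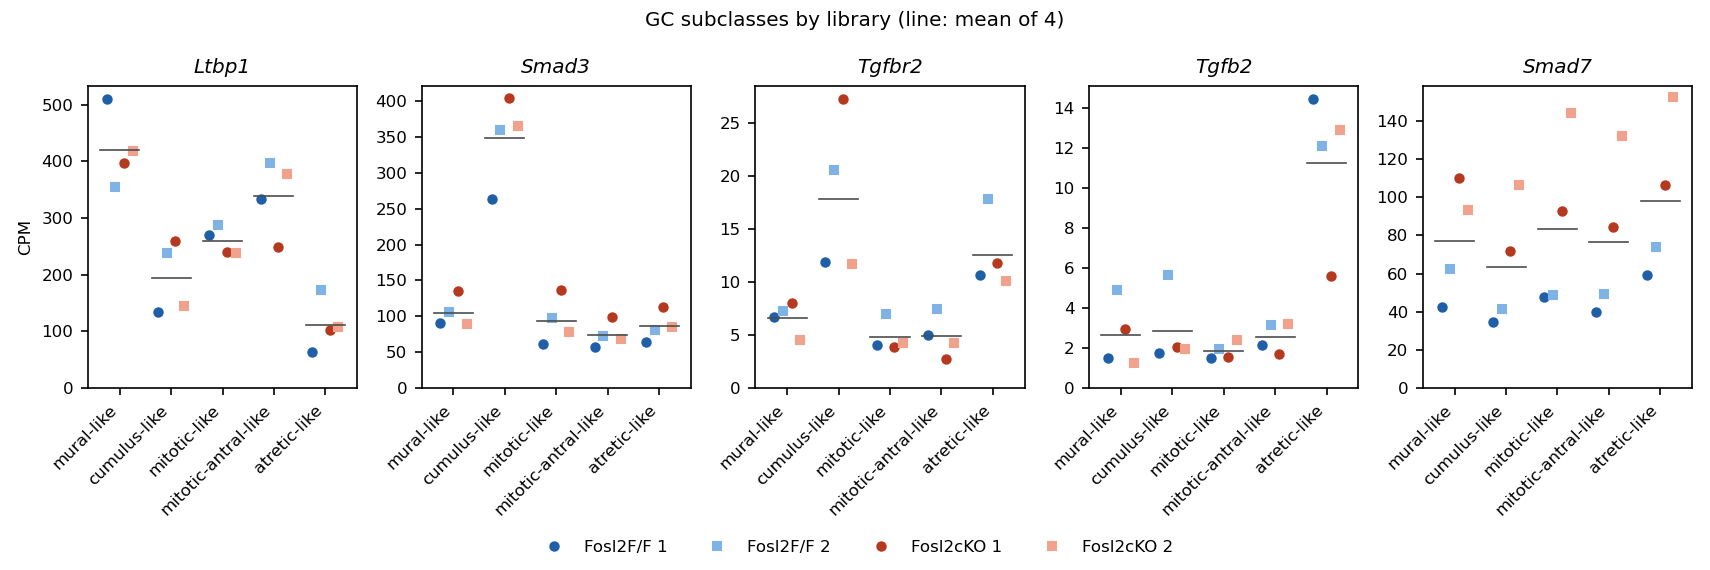
Level of 5 genes in CPM (vertical axes, linear) in the 5 named GC subclasses, with libraries as points and means of 4 as lines. The cumulus-like libraries of Smad3 lie between 264 and 404 CPM above all others, and Smad7 is higher in both libraries labelled Fosl2cKO than in both Fosl2F/F libraries in each subclass.

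Between the conditions, 2 of 94 member and class pairs passed an adjusted p under 0.1 with a log2 fold change over 0.25 in size, against 0.139% of all gene and class pairs. Both were in NK or T-like cells, where 0.561% of the 7840 genes tested passed. At an unadjusted p under 0.05 there were 14 of the 94 pairs, 9 of them for Smad7, against 5.62% of all gene and class pairs. In GC-like cells, the cells in which Cre acts, 0 of the 10 genes passed in edgeR, 1 had an unadjusted p under 0.05 (Smad7; 4.72% of all genes), and DESeq2 passed that gene (adjusted p = 0.002085). Of all 17274 genes tested in GC-like cells, 0.00579% passed.

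Smad7 stood higher in the libraries labelled Fosl2cKO in most classes. Over all barcodes it stood at 41.3 and 42.8 CPM with Fosl2F/F and at 70.1 and 99.1 CPM with the Fosl2cKO label, a ratio of the means of 2.01. The log2 fold change was above 0 in 10 of the 10 classes tested, between 0.47 and 1.78 with a median of 0.96, and the median over all genes lay between -0.02 and 0.02 in each. The highest value, in B lymphocyte-like cells, came from 6 and 1 UMIs with Fosl2F/F and 12 and 21 UMIs with the Fosl2cKO label. Lymphatic endothelial-like cells, with 2 and 9 UMIs against 37 and 3, were not tested.

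In NK or T-like cells Smad7 was at 52.3 and 82.3 CPM with Fosl2F/F, from 36 and 31 UMIs, and at 154 and 307 CPM with the Fosl2cKO label, from 167 and 225 UMIs. The groups did not overlap (24.2% of all genes were higher without overlap in this class), and the log2 fold change was 1.74 ± 0.33 SE (adjusted p = 0.0478, and 0.03388 in DESeq2). In fits without 1 library, the lone library of its group is assumed to vary like the other group, which alone gives the spread between libraries. Without Fosl2F/F replicate 1 the Smad7 value in NK or T-like cells was 1.43 and did not pass (adjusted p = 0.791), nor did it in cells with over 2000 UMIs (1.79, adjusted p = 0.237). In GC-like cells Smad7 was at 47.9 and 51.7 CPM against 92.3 and 134 CPM, from 1985 to 6480 UMIs per library. The groups again did not overlap (17.1% of all genes), with a log2 fold change of 1.16 ± 0.22 SE, but the adjusted p was 0.487 in edgeR and 0.002085 in DESeq2. Without Fosl2cKO replicate 1 edgeR passed it in a fit of 1 library against 2 (1.42, adjusted p = 0.004435), and it passed in edgeR as well with no filter on low counts (adjusted p = 0.003261). The replicate block passed it too (adjusted p = 0.09753). The call in GC-like cells changes with the test, the filter on low counts, the block and 1 library.

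Most other classes had the same order, although none of them passed. With no filter on low counts Smad7 also passed in endothelial-like (adjusted p = 0.02348) and macrophage-like cells (0.08244), as it did without Fosl2cKO replicate 1 (log2 fold changes 1.377 and 1.593, adjusted p = 0.005257 and 0.02996 in edgeR). The crossed pairing of replicate numbers passed it in endothelial-like cells (adjusted p = 0.06634). Endothelial-like cells had 53.2 and 77.6 CPM of Smad7 against 94.5 and 172 CPM, stromal-like cells 27.3 and 40.3 CPM against 57.1 and 71.4 CPM, and theca-like cells 18.8 and 27.0 CPM against 41.2 and 36.7 CPM. The groups did not overlap in 9 of the 10 classes, against 18.1% of all gene and class pairs. Macrophage-like cells were the exception (23.8 and 14.2 CPM against 20.2 and 60.9 CPM). Among the 9, luteal-like cells separated only by 46.2 CPM in Fosl2F/F replicate 1 against 46.8 CPM in Fosl2cKO replicate 1. Of 5353 genes tested in 10 or more classes, 2.15% were higher without overlap in at least 9, and 10.9% had a positive log2 fold change in at least 10. Smad7 was also higher without overlap in all 5 named GC subclasses (21.8% of all gene and subclass pairs), with log2 fold changes from 0.89 in atretic-like to 1.27 in mitotic-like cells. In the 4 clusters left unnamed among all cells its log2 fold change was 0.86 to 1.32, and none passed (lowest adjusted p = 0.39, edgeR). In the unnamed clusters within GC-like cells, of 1712 and 476 cells, 0 members passed (0.00795% and 0.0948% of all genes did). All these classes come from the same 4 libraries.

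A set of 10 immediate early and stress genes, chosen after the Smad7 levels had been seen, was counted in the same libraries. In GC-like cells 1 was higher and 2 were lower without overlap (17.1% and 14.4% of all genes). Their summed level was 7746 and 7046 CPM with Fosl2F/F and 6654 and 6856 CPM with the Fosl2cKO label. In NK or T-like cells it was 5880 and 6053 CPM against 5773 and 5846 CPM, with 1 gene higher and 3 lower (24.2% and 18.2% of all genes). In luteal-like cells it was 5663 and 8018 CPM against 11544 and 13945 CPM, with 8 of the 10 genes higher and 2 lower without overlap (29.5% and 17.9% of all genes). In endothelial-like cells 7 of the 10 were lower (15% of all genes), with sums of 7055 and 6766 CPM against 5912 and 5120 CPM, and in lymphatic endothelial-like cells 5 were higher (17.4%). The part of these genes in the results for any class was not tested.

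The few Ltbp1 UMIs in NK or T-like cells were fewer per total in the libraries labelled Fosl2cKO. The levels were 59.6 and 50.4 CPM from 41 and 19 UMIs with Fosl2F/F, and 9.20 and 17.7 CPM from 10 and 13 UMIs with the other label, without overlap (18.2% of all genes were lower without overlap; log2 fold change -2.17, SE 0.42, adjusted p = 0.0478). DESeq2 gave an adjusted p of 0.318 for it, and without Fosl2F/F replicate 1 edgeR gave 0.679. The level of Ltbp1 in the other leukocytes was 14.5 to 27.4 CPM in B lymphocyte-like and 8.27 to 32.1 CPM in macrophage-like cells. Markers of the classes richest in Ltbp1 were counted in NK or T-like cells too, and several were lower in the same libraries. The summed level of 10 GC markers there was 1067 and 475 CPM against 386 and 250.9 CPM, with 5 of the 10 lower and 0 higher without overlap. That of 9 luteal markers was 407 and 974 CPM against 271 and 226 CPM, with 6 lower and 0 higher. Each marker had UMIs in at least 1 library (Akr1c18 was at 0 CPM in both libraries labelled Fosl2cKO, Cdh12 in 2 libraries and Parm1 in 1), and in their own classes the sums were 7621 to 14810 CPM and 8078 to 19061 CPM. Their part in the result for Ltbp1 was not tested, and the values do not show a change of Ltbp1 within lymphocytes. In GC-like cells Ltbp1 had 267 and 274 CPM against 251.1 and 211.5 CPM, without overlap (14.4% of all genes) and without passing (log2 fold change -0.26, adjusted p = 0.999).

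In luteal-like cells, whose 2 clusters were represented unequally in the libraries, 0 of 9 members tested passed in edgeR, where 0.0156% of 12797 genes did. At an unadjusted p under 0.05 there were 2, Tgfbr1 and Tgfbr2, in a class where 11% of all genes were. Tgfbr1, Ltbp1, Tgfb3 and Smad7 separated the groups upward in the libraries labelled Fosl2cKO and Tgfbr2 downward. For Smad7 the separation was only 46.2 against 46.8 CPM. The log2 fold change of Tgfbr1 was 1.54 ± 0.51 SE (adjusted p = 0.404 in edgeR, 0.01587 in edgeR with no filter on low counts and 0.0748 in DESeq2, the latter 2 passing), that of Ltbp1 0.96 ± 0.56 SE (adjusted p = 0.552). Without Fosl2cKO replicate 2 the value for Ltbp1 was 0.16. Tgfbr2 had 33.6 and 23.9 CPM against 18.7 and 12.8 CPM (a log2 fold change of -0.99, SE 0.36, adjusted p = 0.426). Absence of overlap alone is frequent in this class, where 29.5% of all genes were higher without overlap and 17.9% lower. In the cluster led by Ces2a, Tgfbr1 was at 137 and 338 CPM against 632 and 737 CPM. The 137 CPM came from 23 UMIs in 60 cells, in a library with 123.4 CPM of Tgfbr1 over all barcodes. In the cluster led by Onecut2 Tgfbr1 was at 111 and 159 CPM against 471 and 350 CPM, so that the order of the groups was the same in both. The order of Ltbp1 was also kept in both. In the cluster led by Ces2a the groups overlapped for Tgfb3, for Smad7 (59.7 and 27.8 CPM against 46.6 and 73.9 CPM) and for Tgfbr2 (41.8 and 17.98 CPM against 17.99 and 11.3 CPM), while in the cluster led by Onecut2 these 3 genes did not overlap. These orders rest on small differences and few UMIs. Smad7 in the cluster led by Onecut2 separated by 50.64 against 50.68 CPM, the latter from 21 UMIs in 39 cells, Tgfbr2 in that led by Ces2a overlapped by 17.98 against 17.99 CPM, and the 59.7 CPM of Smad7 there came from 10 UMIs in 60 cells.

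None of the ligands passed in any class with all 4 libraries. Without Fosl2F/F replicate 2, the library that stood apart, Tgfb2 passed in lymphatic endothelial-like cells (log2 fold change 1.908 in place of 0.94, adjusted p = 0.01353 in edgeR), as did Ltbp1 there (1.544) and Smad3 in macrophage-like cells (1.099). These 3 fits set 1 Fosl2F/F library against 2, so the spread comes from the other group alone. Tgfb1 had a positive log2 fold change in 10 of 11 classes, from -0.50 in luteal-like to 1.05 in pericyte or smooth muscle-like cells, with a median of 0.35, and 10.9% of the genes tested in 10 or more classes were positive in at least 10. The groups did not overlap, upward, in 2 of the 11 classes, a share near the 18.1% of all gene and class pairs. The luteal-like value depends on the cluster, since Tgfb1 had 91.4 and 99.0 CPM against 140 and 151 CPM in the cluster led by Onecut2, without overlap and upward, and overlapped in that led by Ces2a. In GC-like cells its log2 fold change was 0.18 ± 0.30 SE, that of Tgfb2 was -0.07 ± 0.33 SE and that of Tgfb3 -0.10 ± 0.27 SE. Smad3 had a positive log2 fold change in 9 of 11 classes, with a median of 0.25, and was higher without overlap in 4 and lower in 0. Tgfbr1 was positive in 7 of 10 classes, with a median of 0.25, and higher without overlap in 4 and lower in 0. Of all gene and class pairs, 18.1% were higher without overlap. The median of Tgfbr2 over 11 classes was 0.13, that of Ltbp4 over 9 classes was -0.19, and that of Ltbp2 over the 5 classes in which it could be tested was 0.08.

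**Figure D5:**
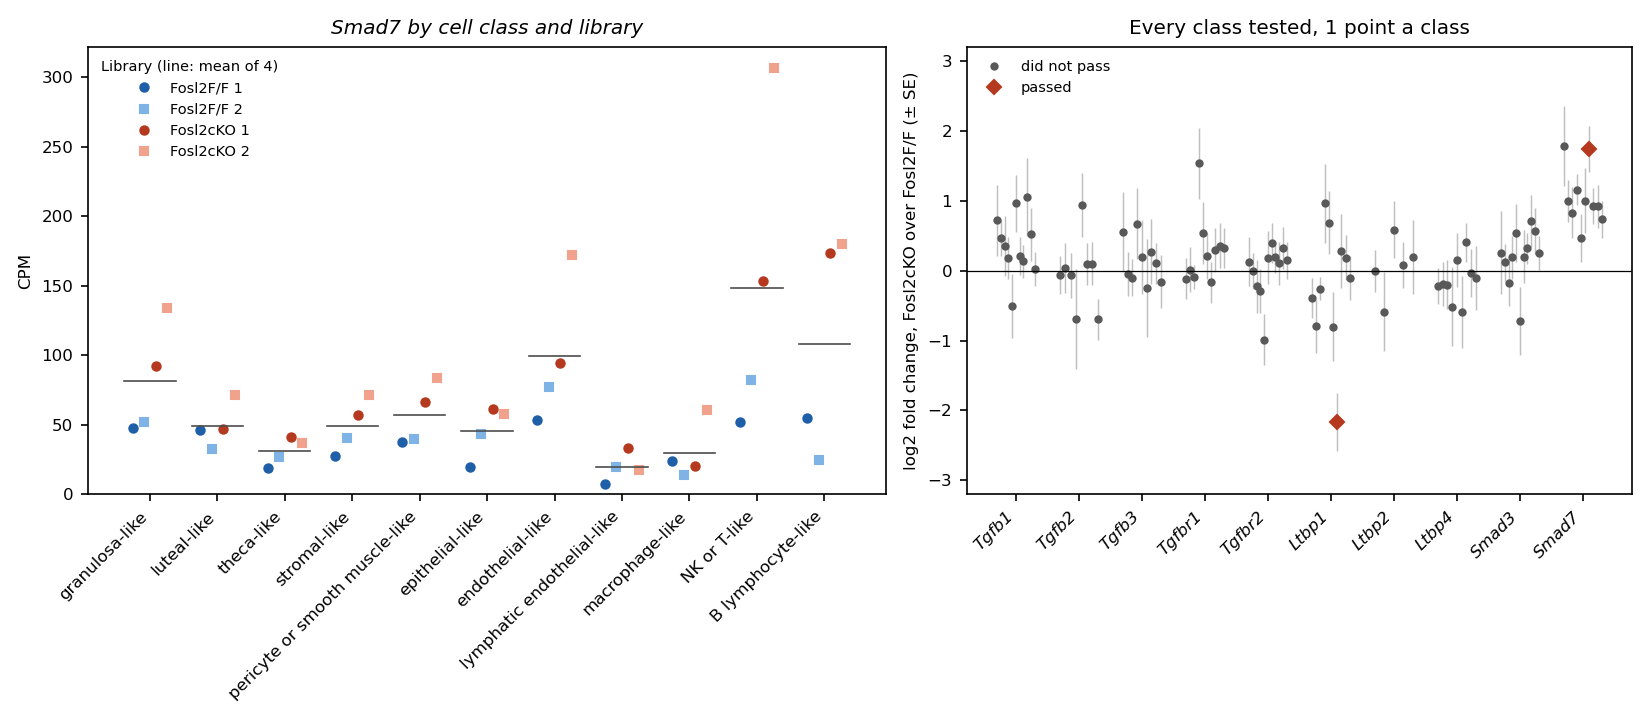
Left, level of Smad7 in CPM in the 11 named classes, with libraries as points and means of 4 as lines. Right, log2 fold change of the libraries labelled Fosl2cKO over Fosl2F/F (± SE) for each gene, 1 point per class tested; the points of Smad7 all lie above 0, and the 2 that passed (diamonds) are Ltbp1 and Smad7 in NK or T-like cells.

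Whether the fold change in GC-like cells differed from that in each other class was tested on differences within libraries with limma. Of 100 member and class pairs 0 passed an adjusted p under 0.1, and 5 had an unadjusted p under 0.05, against 4.38% of all gene and class pairs. All genes passed at 3.41% against B lymphocyte-like cells and at 0% against each of the other 9 classes. That 0 of the 10 genes passed does not show that the classes responded alike.

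The remaining genes of the pathway were read as 4 lists of 48 genes in all. By condition, 0 of 426 list gene and class pairs passed in edgeR, and 31 had an unadjusted p under 0.05, a share near the 5.62% of all gene and class pairs. Across classes, the list of latent storage and activation had 9 of 13 tested genes higher in stromal-like cells (17.8% of all genes), 8 in pericyte or smooth muscle-like cells (15.5%) and 7 in lymphatic endothelial-like cells (13.1%), with 1, 1 and 3 lower (4.91%, 5.25% and 6.73% of all genes). It had 2 higher and 5 lower in GC-like cells (17.7% and 9.47%) and 4 higher and 6 lower in luteal-like cells (14.7% and 9.51%). The median log2 difference of that list was 2.27 in stromal-like and -0.85 in GC-like cells. Nrros, which anchors latent TGF-beta on myeloid cells, was 6.36 log2 units above the other classes in macrophage-like cells.

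The list of responsive genes had 7 of 9 genes higher and 0 lower in stromal-like and in pericyte or smooth muscle-like cells, where 17.8% and 15.5% of all genes were higher. It had 5 higher in each of endothelial-like, lymphatic endothelial-like and macrophage-like cells (15.8%, 13.1% and 17.5%), with 0, 0 and 2 lower (6.6%, 6.73% and 10.3%), and 1 higher and 4 lower in GC-like cells (17.7% and 9.47%). Among co-receptors and receptor partners, Eng and Cd109 were 5.97 and 7.03 log2 units higher in endothelial-like cells than in the others, and Acvrl1, the endothelial type I receptor, was 4.08 log2 units lower in GC-like cells (log2 difference -4.08). Endothelial-like and lymphatic endothelial-like cells each had 5 of the 8 genes of that list higher and 1 lower (15.8% and 6.6% of all genes in the former, 13.1% and 6.73% in the latter), with median log2 differences of 1.30 and 1.88. Of the 17 SMAD proteins and their regulators, 1 was higher and 1 lower in GC-like cells (17.7% and 9.47% of all genes) and in luteal-like cells (14.7% and 9.51%), 3 were higher in macrophage-like cells (17.5%) and 4 lower in B lymphocyte-like cells (13%). In this list Pmepa1, a target that restrains SMAD signalling, was 2.40 log2 units higher in stromal-like cells.

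Likeness of pattern was measured as the Pearson correlation of mean log2 CPM over the 11 classes, among 11040 genes with at least 20 CPM in a class. The most similar gene to Ltbp4 was Eln, the elastin gene (r = 0.99), followed by Mn1 and Tns2. Tgfb3 was most like Itgb8 (r = 0.95), an integrin subunit that activates latent TGF-beta. Tgfb2 was most like Osmr (0.967), Tgfbr2 like Nfatc1 (0.956), Tgfb1 like Irak4 (0.947), Ltbp2 like Lin7a (0.958) and Tgfbr1 like Gm50020 (0.917). The closest genes to Ltbp1, Smad3 and Smad7 were Hdgfl2 (0.893), Kctd18 (0.886) and Cops4 (0.893). Between the 10 genes themselves, Tgfb2 and Ltbp4 were most alike (r = 0.933), then Smad3 and Smad7 (0.828) and Tgfb3 and Ltbp2 (0.821). The 11 points of each correlation share libraries, and with so many candidates high values occur readily.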

How the data were processed

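Reads had been aligned by the authors to GRCm38 with CellRanger, and the deposited values are UMI counts, whole and not normalized. CellBender is named in the methods, and it is not stated whether its correction is in these counts. All columns were used (0 left out). Cells were required to show 500 genes or more, more than 1000 UMIs, less than 10% mitochondrial UMIs and less than 0.1% from hemoglobin genes. The highest Scrublet scores (scanpy 1.11.5) were removed at 0.8% per 1000 cells. SCTransform and Seurat 5.3.0 integrated the libraries on 3000 features, less 34 pathway genes, and 30 dimensions, and clusters were cut at a resolution of 0.8 (0.5 for GC-like cells). Sums per class and library were tested with edgeR 4.0.16 (filterByExpr, TMM, quasi-likelihood), with library as a term across classes. DESeq2 1.42.0 was an alternative, and limma 3.58.1 tested differences of effects. An exact permutation test of 2 against 2 libraries cannot give a p under 0.333. The tests were tried on simulated data. Other alternatives were other scalings, no gene filter, stricter cell and doublet filters, other resolutions, a replicate block and leaving out each library. A crossed pairing, a fit without B lymphocyte-like cells and removal of a trend with the guanine and cytosine share of transcripts were chosen after seeing the data. With that trend removed, Smad7 and Ltbp1 in NK or T-like cells had adjusted p = 0.0616 and 0.0674 in edgeR. The genes named are the 10 members, up to 4 genes per list with the largest class difference, the most similar genes per member and leading genes of clusters. Members and lists were chosen with earlier results of these data known.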

Additional observations from a re-analysis of the deposited data

How the results depend on the processing

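The counts across classes (34 higher, 32 lower) kept within 1.5 times under every alternative, and leaving out 1 library gave 32 to 34 higher and 24 to 30 lower. Without Fosl2cKO replicate 1 the log2 difference of Ltbp2 in theca-like cells turned from -1.26 to 0.0212, the range over libraries left out being -1.42 to 0.0212. B lymphocyte-like cells then had 0 UMIs of Ltbp2. Without that class, and with all libraries, the difference was -1.25. The 2 pairs that passed by condition became 6 with no filter on low counts, 0 in cells with over 2000 UMIs and 1 after doubled doublet removal, where Smad7 in NK or T-like cells remained. Leaving out 1 library gave 0 (Fosl2F/F replicate 1) to 5 pairs (Fosl2F/F replicate 2 and Fosl2cKO replicate 1). Of GC subclass pairs, 1 was lower. There were 2 with total UMIs in place of TMM, with no filter or with coarser clusters, 3 with finer clusters or doubled doublet removal, and 2 to 3 with 1 library left out. With no minimum difference 14 were lower and 12 higher in place of 4. The causes were not tested. Replicate numbers name libraries only, and same-numbered libraries did not deviate together (correlations -0.18 to 0.09). The replicate block gave 3 pairs by condition, adding Smad7 in GC-like cells (adjusted p = 0.0975 in edgeR). The crossed pairing also gave 3 pairs. DESeq2 gave 3, without Ltbp1. Between classes the count stayed at 0 with the block and with any library left out. With 2 libraries a group and 10 to 225 UMIs behind the NK or T-like values of Ltbp1 and Smad7, depth limits what these comparisons can show.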
